A study of Danio rerio with 6 samples.

Results

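The solute carriers are the slc genes, a large set of membrane proteins that move sugars, amino acids, ions, vitamins, metals and metabolites across cell and organelle membranes. 31 probe sets of 29 such genes were found among the 2325 probe sets that the authors' deposited tables name with 1 gene, on an Affymetrix zebrafish array of 15502 probe sets besides controls. A probe set is a group of short array probes read together as 1 signal. A member is a probe set listed in at least 1 of the 3 deposited fold tables whose current gene symbol starts with slc. The symbol was taken by gene identifier for 28 probe sets and as written in the tables for the other 3, which are slc11a2, slc15a1 and slc3a2. The red cell anion exchanger slc4a1a was left out, and 6 more probe sets with solute carrier in their description have no such single symbol and are not members.

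The study injected zebrafish eggs up to the 4-cell stage and took RNA from whole embryos 72 h after fertilization. The groups are ERbeta2 MO (50 uM of a morpholino, a synthetic antisense oligonucleotide, that blocks translation of the estrogen receptor ERbeta2), coMO (50 uM of a standard control morpholino) and uninjected embryos, with 2 arrays each. Eggs of all groups were pooled from several aquaria and the embryos were raised at the same temperature. Per its title the study concerned neuromasts, small sense organs in the skin of fish. The sample titles call the arrays of each group biological replicates. No label ties these replicates to separate spawnings, and the p-values therefore measure only the spread between these arrays. The targeted gene was not analysed here, and its mRNA would not test a morpholino that acts on translation.

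Solute carriers are classed by number, and each number marks a family with its own kind of cargo. Families work in sets: in the gut and the kidney tubule, carriers of the apical membrane take up nutrients with sodium or protons, and the sodium gradient they use is made by the Na,K-ATPase. In mitochondria, family slc25 moves phosphate, cofactors and metabolites across the inner membrane. In neurons and glia, carriers of family slc6 clear transmitters from the synapse. A 72 h zebrafish embryo has a forming gut, a working embryonic kidney and liver, and differentiating brain and eyes.

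The deposited folds of ERbeta2 MO against the controls chose the members, at 2 or above or at 0.5 or below. Their differences in these comparisons are therefore a description, with no test of the group of genes. Of the 31 members 24 were listed against both controls, 3 against coMO alone and 4 against uninjected embryos alone. None was listed in the table of uninjected over coMO. The direction was the same against both controls for all 31, but those comparisons share the ERbeta2 MO arrays.

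ERbeta2 MO embryos had lower signals than coMO embryos for 23 members of 21 genes and higher signals for 8 members of 8 genes. The lower ones were led by the mitochondrial phosphate carrier slc25a3a and by carriers of the gut and kidney epithelium. Of the 11 lower members for that epithelium, 8 were left out of testing by a filter on low mean signal. The higher ones were single genes for phosphate, zinc, iron, fatty acids and mitochondrial cofactors, and slc2a15b of the sugar transporter family. For amino acids they were slc43a2a and slc25a44b, the latter by its relation to a known carrier. Over all 31 the median difference was -1.30 in log2(signal + 16), the scale of every log2 value here, and it ran from -4.64 to 1.29. Both arrays of ERbeta2 MO lay outside the range of both coMO arrays for all 31, and this was so for 78.7% of all 9302 probe sets tested.

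**Figure D1:**
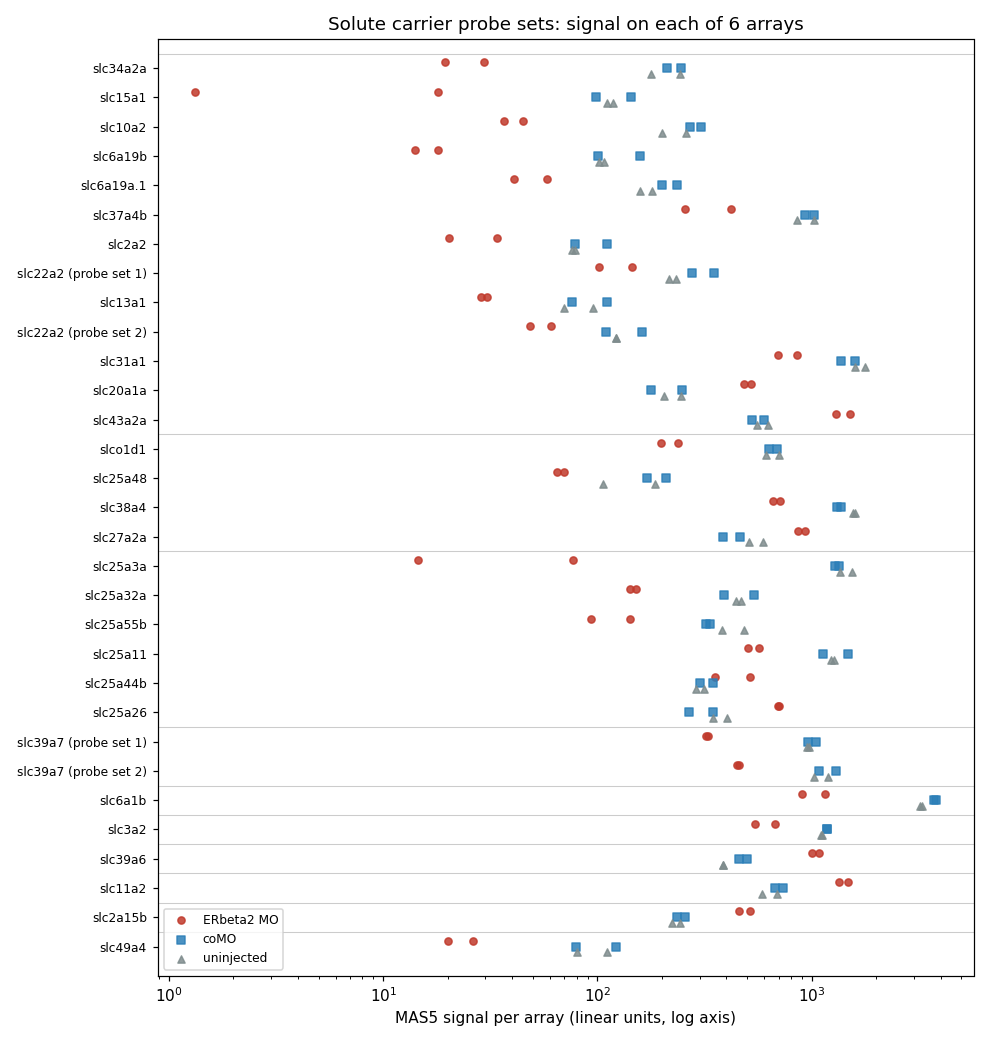
MAS5 signal of the 31 solute carrier probe sets on each of the 6 arrays (linear units on a log axis), with ERbeta2 MO as circles, coMO as squares and uninjected as triangles. Horizontal lines part the organ lists, from intestine and kidney at the top, and both ERbeta2 MO points stand to one side of all 4 control points in every row.

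A filter on low signals, which leaves out the 40% of probe sets with the lowest mean, kept 21 of the 31 members. The other 10 were all lower in ERbeta2 MO, with mean signals of 9.65 to 67.3 there, of 93.6 to 287 in coMO and of 77.1 to 229 in uninjected embryos. These 10 are described by their values only. The filter mean included the ERbeta2 MO arrays, so low signals there helped to place a member below the filter. slc10a2, with means of 287 in coMO and 229 in uninjected embryos, was left out. slc20a1a, with 212 and 224 in these groups but 502 in ERbeta2 MO, was kept. That all 10 were lower is therefore in part set by the filter, as is the median of the tested members. For the 21, limma with Benjamini-Hochberg adjustment over all 9302 probe sets called 7 higher and 13 lower than coMO, at an adjusted p of 0.05. Among all probe sets tested it called 56.2%, with 29.5% higher and 26.8% lower, so calls were common across the array. Nothing is read from the members' counts, since the rule used these differences. The median log2 difference of the 21 was -0.95, beside 0.05 for all probe sets tested, which were not chosen on these differences. Among the 1875 tested probe sets that the deposited tables name with 1 gene, it was 0.56, with 978 called higher and 832 lower.

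The organ lists that follow place each carrier by 1 organ or function in which it is known, and every member has 1 list or none. A place in a list does not mean that a member is particular to it. In the intestine and kidney list, for example, slc31a1 serves most cells and slc2a2 also acts in liver. In total RNA of whole embryos, fewer cells of a type and less RNA per cell cannot be told apart.

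The intestine and kidney list held 13 members of 12 genes, the most of any list. 11 members of 10 genes were lower in ERbeta2 MO than in coMO, at log2 -2.60 to -0.93, and slc20a1a and slc43a2a were higher. Of the 11 lower members, 8 lay below the filter. The tested ones were slc37a4b, slc31a1 and the first probe set of slc22a2.

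Among the carriers of the apical gut and kidney membrane, slc34a2a, which takes up phosphate with sodium, had signals of 29.6 and 19.4 on the ERbeta2 MO arrays. They were 210 and 246 on the coMO arrays and 243 and 178 on the uninjected arrays. Both ERbeta2 MO values lay far below the 4 control values, which overlapped each other.

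The peptide carrier slc15a1, which brings in small peptides together with protons, had signals of 1.32 and 18.0 in ERbeta2 MO, 144 and 98.4 in coMO and 118 and 110 in uninjected embryos. The ileal bile acid carrier slc10a2 had 36.8 and 44.7 in ERbeta2 MO, 271 and 304 in coMO and 258 and 201 in uninjected embryos. Each was low on both ERbeta2 MO arrays, and for slc10a2 both coMO arrays also lay above both uninjected arrays. With ERbeta2 MO signals near the offset of 16, the sizes of these differences depend on that offset: they were 6.06-fold lower for slc34a2a, 5.58-fold for slc15a1 and 5.35-fold for slc10a2.

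The list held 2 genes for a neutral amino acid carrier of gut and kidney, slc6a19a.1 and slc6a19b. slc6a19b had signals of 18.0 and 14.01 in ERbeta2 MO, 157 and 100.2 in coMO and 102 and 107 in uninjected embryos. slc6a19a.1 had 58.4 and 40.7 in ERbeta2 MO, 236 and 199 in coMO and 179 and 159 in uninjected embryos. Both genes were lower on both ERbeta2 MO arrays, by a log2 difference from coMO of -2.15 for slc6a19b and -1.84 for slc6a19a.1. Close copies of a gene may share array probes, so the separation of these related genes is uncertain.

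For sugar, slc2a2 and slc37a4b were in this list. slc2a2, a glucose transporter of liver, gut and kidney, had 33.99 and 20.3 in ERbeta2 MO, 110.5 and 78.4 in coMO and 78.4 and 75.8 in uninjected embryos. slc37a4b belongs to the gene family that carries glucose 6-phosphate into the endoplasmic reticulum for glucose release. It had 422 and 257 in ERbeta2 MO, 1029 and 930.4 in coMO and 1028 and 851 in uninjected embryos. Both were lower on both ERbeta2 MO arrays than on every control array.

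The organic cation carrier of the kidney, slc22a2, had 2 probe sets. Its first had 101 and 145 in ERbeta2 MO, 350 and 277 in coMO and 233 and 215 in uninjected embryos. Its second had 60.5 and 48.4 in ERbeta2 MO, 161 and 109 in coMO and 122 and 122 in uninjected embryos. The probe sets gave the same direction, at log2 -1.25 and -1.09 against coMO, and neither was in the deposited table against uninjected embryos, where the values were -0.81 and -0.97.

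The sulfate carrier slc13a1 had 28.5 and 30.7 in ERbeta2 MO, 111 and 76.4 in coMO and 94.9 and 69.6 in uninjected embryos. slc31a1, which imports copper and serves most cells, had the smallest difference from coMO among the 11. It had 851 and 698 in ERbeta2 MO, 1377 and 1588 in coMO and 1782 and 1599 in uninjected embryos, a log2 difference from coMO of -0.93. Its sign against coMO turned with the arrays scaled on the poly-A spikes, to 0.01.

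The pair that was higher in this list carries phosphate and amino acids. slc20a1a, a sodium phosphate carrier, had 481 and 524 in ERbeta2 MO, 247 and 178 in coMO and 244 and 205 in uninjected embryos. slc43a2a, of a family that carries large neutral amino acids, had 1514 and 1302 in ERbeta2 MO, 527 and 602 in coMO and 624 and 558 in uninjected embryos. Thus 2 phosphate carriers placed in this list stood on opposite sides, slc34a2a at log2 -2.60 and slc20a1a at 1.20 against coMO. Whether both signals came from the same tissue was not tested. slc43a2a had the highest log2 difference from coMO of all 31 members, at 1.29, which is 2.45-fold.

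Marker genes of the same organs were lower beside this list. Of 5 intestine markers listed, 4 were named in the deposited tables (fabp2, fabp6, vil1 and chia.2), and all 4 were lower in ERbeta2 MO. Their summed signal was 1009 to 1100 in ERbeta2 MO, 11553 to 11696 in coMO and 11855 to 13507 in uninjected embryos. Of 3 kidney tubule markers 1 was named, cdh17, at 430.0 and 444 in ERbeta2 MO, 1081 and 819 in coMO and 1025 and 1080 in uninjected embryos. Most of the intestine sum in ERbeta2 MO came from fabp2, at 1037 and 930. There fabp6 had 23.3 and 25.9, chia.2 had 22.3 and 30.7 and vil1 had 17.6 and 22.5, all near the offset of 16. Their mean signals in coMO were 1857, 1489 and 685. The markers of this and every later list were named only because they differed, so a marker that did not differ could not appear. The part of the intestine and kidney markers in the carriers' differences was not tested.

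**Figure D2:**
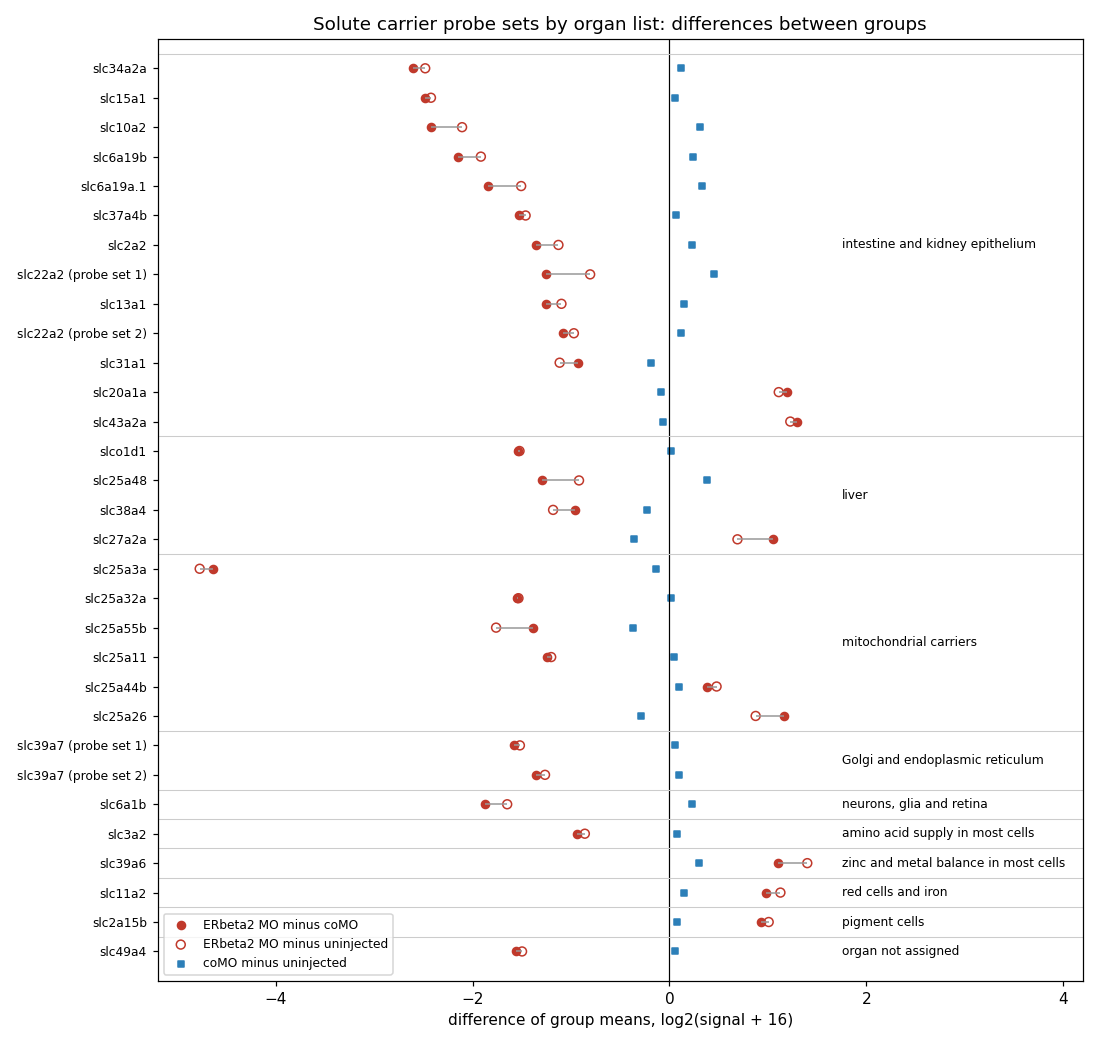
Difference of group means in log2(signal + 16) for the 31 members, grouped by organ list. Filled circles are ERbeta2 MO minus coMO, open circles ERbeta2 MO minus uninjected and squares coMO minus uninjected, and 23 members lie left of 0 in both ERbeta2 MO differences while the squares lie between -0.37 and 0.45.

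The liver list held 4 members, of which 3 were lower and 1 was higher in ERbeta2 MO. slco1d1, of the family that takes organic anions such as bile acids into cells, had 199 and 238 in ERbeta2 MO, 691 and 634 in coMO and 610.2 and 701 in uninjected embryos. slc38a4, an amino acid carrier known from liver, had 663 and 708 in ERbeta2 MO, 1367 and 1318 in coMO and 1557 and 1592 in uninjected embryos. For both, the ERbeta2 MO arrays lay below all control arrays, by a log2 of -1.54 and -0.95 against coMO.

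The mitochondrial carrier slc25a48 had 64.9 and 69.8 in ERbeta2 MO, 170 and 209 in coMO and 186 and 107 in uninjected embryos. slc27a2a, which activates and takes up very long chain fatty acids, went the other way. It had 861 and 929 in ERbeta2 MO, 387 and 465 in coMO and 589 and 509 in uninjected embryos. Its coMO arrays lay below the uninjected arrays, so its log2 difference was 1.05 against coMO and 0.69 against uninjected embryos.

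Of 5 liver markers 4 were named (fabp10a, tfa, ambp and serpina1), and their 5 probe sets were all lower. Their summed signal was 10968 to 11040 in ERbeta2 MO, 39459 to 44194 in coMO and 41305 to 42237 in uninjected embryos. The largest difference was that of fabp10a, a fatty acid binding protein, whose mean signal was 16.7 there, against 2333 in coMO and 2308 in uninjected embryos. The liver markers too were named only because they differed, and their part in the liver carriers' differences was not tested.

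Mitochondrial carriers of family slc25 were the largest family, with 7 members counting slc25a48 above. The 6 in the mitochondrial list all passed the filter, and against coMO limma called 4 lower and 1 higher, beside 26.8% lower and 29.5% higher of all probe sets tested. Nothing is read from that count, since the rule used these differences. slc25a3a, which brings the phosphate for ATP synthesis into the mitochondrion, differed most of all 31 members. It had 77.3 and 14.5 in ERbeta2 MO, 1337 and 1287 in coMO and 1352 and 1534 in uninjected embryos. The ERbeta2 MO arrays disagreed about its level but both lay far below every control array.

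On the offset scale slc25a3a was 24.9-fold lower than in coMO, at log2 -4.64. The size rested on single arrays and on the offset. It was -5.45 without ERbeta2 MO replicate 1 and -3.83 without ERbeta2 MO replicate 2, and it was -5.24 with an offset of 1 and -3.71 with an offset of 64. Against uninjected embryos it was -4.77, with -5.58 and -3.96 without these replicates and -5.37 and -3.84 with these offsets.

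The carrier of folate and flavin cofactors, slc25a32a, had 152 and 141 in ERbeta2 MO, 538 and 391 in coMO and 467 and 442 in uninjected embryos. slc25a55b had 93.3 and 142 in ERbeta2 MO, 334 and 321 in coMO and 383 and 480.5 in uninjected embryos. Both were lower against both controls, slc25a32a at log2 -1.55 against coMO and -1.53 against uninjected embryos and slc25a55b at -1.39 and -1.76.

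The 2-oxoglutarate and malate exchanger slc25a11, a part of the malate shuttle that brings reducing power into mitochondria, had 569 and 504 in ERbeta2 MO, 1134 and 1477 in coMO and 1271 and 1234 in uninjected embryos. It too was lower than both controls, at log2 -1.25 against coMO. With the poly-A scaling the calls of slc25a32a, slc25a55b and slc25a11 against coMO ended, at log2 -0.61, -0.45 and -0.31. Against uninjected embryos slc25a32a (-0.89) and slc25a55b (-1.12) were still called lower with that scaling, and slc25a11 (-0.56) was not.

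slc25a26, which brings the methyl donor S-adenosylmethionine into mitochondria, was higher. It had 698 and 703 in ERbeta2 MO, 345 and 267 in coMO and 348 and 403 in uninjected embryos. slc25a44b, related to the carrier of branched-chain amino acids, had 515 and 355 in ERbeta2 MO, 302 and 347 in coMO and 290 and 315 in uninjected embryos. The lower ERbeta2 MO array of slc25a44b lay only just above the higher coMO array, and limma did not call that difference, of log2 0.38. It was called with median centring (0.55), with the hybridization control scaling (0.84), with the poly-A scaling (1.32) and without ERbeta2 MO replicate 2 (0.64).

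Zinc carriers of family slc39 import zinc into the cytosol, from outside or from organelles, and its 2 genes here stood on opposite sides. slc39a7, which releases zinc from the endoplasmic reticulum and Golgi, had 2 probe sets. Its first had 329 and 320 in ERbeta2 MO, 1046 and 958 in coMO and 948 and 972 in uninjected embryos. Its second had 446 and 459 in ERbeta2 MO, 1083 and 1294 in coMO and 1026 and 1196 in uninjected embryos. The probe sets gave the same direction and nearly the same size, at log2 -1.58 and -1.36 against coMO.

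slc39a6, a zinc importer of the cell surface whose human relative was first known as an estrogen-regulated gene of breast cancer cells, was higher. It had 1000 and 1087 in ERbeta2 MO, 499 and 455 in coMO and 387 and 384 in uninjected embryos. All 3 groups were apart from each other, and the log2 difference was 1.10 against coMO and 1.40 against uninjected embryos, the highest of the 31 against uninjected embryos. The coMO minus uninjected difference of slc39a6 was 0.30 and was not called.

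The other lists held 1 member each. slc6a1b, which clears the inhibitory transmitter GABA, had 1152 and 901 in ERbeta2 MO, 3738 and 3820 in coMO and 3187 and 3269 in uninjected embryos. It was lower on both ERbeta2 MO arrays, and its log2 difference of -1.87 against coMO was the second lowest among the 21 tested. The 5 neuron markers had 6 probe sets, 5 lower and 1, elavl3 of early neurons, higher. Their summed signal was 9244 to 9289 in ERbeta2 MO, 16957 to 17742 in coMO and 17254 to 18027 in uninjected embryos, and its part in the difference of slc6a1b was not tested.

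slc3a2, the heavy chain that brings amino acid exchangers to the cell surface, had 546 and 671 in ERbeta2 MO, 1178 and 1176 in coMO and 1114 and 1109 in uninjected embryos. slc49a4, which had no organ list, had 26.2 and 20.2 in ERbeta2 MO, 79.2 and 122 in coMO and 111 and 80.1 in uninjected embryos. Both were lower on both ERbeta2 MO arrays than on every control array. With the poly-A scaling slc3a2 stood at log2 -0.01 against coMO.

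slc11a2 carries iron into developing red cells and gut cells and is the gene of an anemic zebrafish mutant. It had 1480 and 1334 in ERbeta2 MO, 738 and 675 in coMO and 584 and 689 in uninjected embryos, and was higher on both ERbeta2 MO arrays. Of 5 red blood cell markers 4 were named (hbbe2, hbbe3, alas2 and gata1a) and all 4 were higher, with a summed signal of 10466 to 11511 in ERbeta2 MO, 2425 to 2539 in coMO and 3121 to 3187 in uninjected embryos. The sizes were uneven. The globin hbbe3 had 4445 and 5168 in ERbeta2 MO, 21.7 and 43.3 in coMO and 14.4 and 14.9 in uninjected embryos. Against coMO hbbe2 was 2.49-fold, alas2 2.72-fold and gata1a, below the filter, 1.79-fold higher.

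slc2a15b, a member of the sugar transporter family known from pigment cell development in fish, had 513 and 457 in ERbeta2 MO, 235 and 257 in coMO and 243 and 222 in uninjected embryos. It was higher against both controls. Of 6 pigment cell markers 3 were named (dct, gch2 and mitfa), with 4 probe sets that were all higher. Their summed signal was 3632 to 3877 in ERbeta2 MO, 1221 to 1399 in coMO and 1248 to 1382 in uninjected embryos. Of the other marker lists, photoreceptors had 5 of 5 genes named, all lower, hair cells 2 of 4, both lower, and astroglia 1 of 4, lower. Skeletal muscle had 2 of 5 named, ckmt2a lower and ttn.2 higher, heart had 1 of 4, nppa, higher, and ionocytes had 0 of 4. All these markers were named only because they differed, so their shared directions are a description. The part of the red cell and pigment cell markers in the differences of slc11a2 and slc2a15b was not tested.

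Against uninjected embryos, which differ by the injection itself as well as by ERbeta2 MO, limma called 8 of the 21 tested members higher and 13 lower. Among all probe sets 56.9% were called there, 30.4% higher and 26.5% lower. The ERbeta2 MO and uninjected arrays did not overlap for all 31 members, beside 78.9% of all probe sets tested. The members' log2 differences ran from -4.77 to 1.40, at a median of -1.18 over all 31 and of -1.11 over the 21. The count of 8 takes in slc25a44b, at log2 0.48, which was not called without ERbeta2 MO replicate 1 (0.22), without uninjected replicate 1 (0.42), without uninjected replicate 2 (0.54), with quantile normalization (0.44) and with no filter (0.48). slc22a2 (the first probe set) was not called without ERbeta2 MO replicate 1, at -0.58, nor with the hybridization control scaling, at -0.43.

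Between coMO and uninjected embryos the members had small differences. Their log2 differences ran from -0.37 for slc25a55b to 0.45 for the first probe set of slc22a2, at a median of 0.07. limma called 0 of the 21 tested members. It put 2 of them below an unadjusted p of 0.05, beside 734 of all 9302 probe sets tested. Among all probe sets it called 0.505%, with 0.29% higher, 0.215% lower and 0.118% both called and at least 2-fold apart. The arrays of coMO and uninjected embryos did not overlap for 13 of the 31 members, beside 34.3% of all probe sets tested.

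The next largest differences between the control groups were 0.38 for slc25a48 and 0.34 for slc6a19a.1 upward, and -0.36 for slc27a2a and -0.29 for slc25a26 downward. All 10 members below the filter were higher in coMO than in uninjected embryos by up to 0.38, and none of these was tested. That count was 10 with median centring, 8 with the hybridization controls and 3 with the poly-A spikes, so the lean depended on the scaling. These control arrays are also the ones the members were chosen against.

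How the arrays are scaled moved all members together. The control probe sets of the arrays differed in ERbeta2 MO. GAPDH, read near both ends of its mRNA to follow RNA quality, had a 3'/5' signal ratio of 2.14 and 2.15 in ERbeta2 MO, 1.66 and 1.34 in coMO and 1.47 and 1.35 in uninjected embryos. The same ratio for the muscle actin acta1 was 13.6 and 11.6 in ERbeta2 MO, 7.64 and 5.72 in coMO and 5.41 and 10.04 in uninjected embryos, so 1 uninjected array came near those of ERbeta2 MO. Poly-A spikes are RNAs meant to be added before labelling, and the sample labels do not say that they were added. The mean log2 signal of their probe sets was 6.88 and 6.61 in ERbeta2 MO, 7.52 and 7.83 in coMO and 7.23 and 7.53 in uninjected embryos. On every array this mean lay below the median signal of the array on the same scale, so the poly-A scaling rests on weak signals. The part of RNA quality in the members' differences was not tested.

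With the arrays scaled on those spikes, every difference from coMO shifted up by 0.93, and the median of all probe sets tested became 0.98. Under that scaling 22 of the 31 members were still lower than in coMO, and slc31a1 stood just above 0. limma then called 8 members higher and 3 lower, beside 69.8% higher and 4.17% lower of all probe sets. The 3 were slc25a3a at -3.70, slc6a1b at -0.94 and the first probe set of slc39a7 at -0.64. Median centring and the hybridization control scaling each left 23 of the 31 lower than coMO, the number in the signals as deposited.

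**Figure D3:**
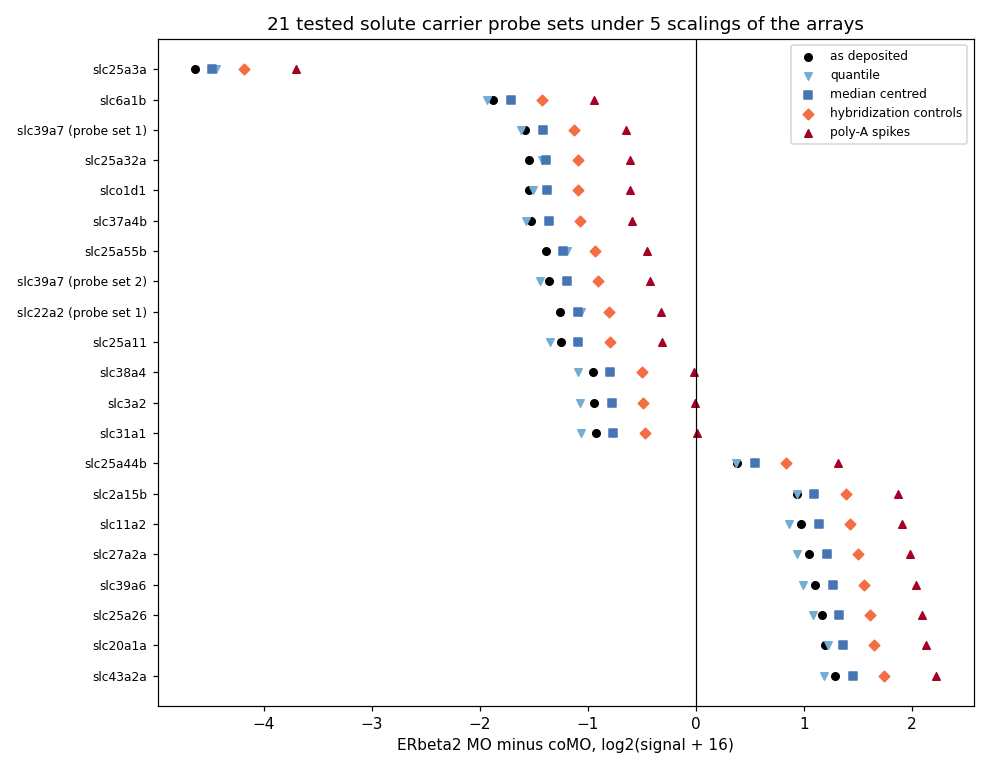
ERbeta2 MO minus coMO in log2(signal + 16) for the 21 tested members under 5 scalings of the arrays, with the arrays as deposited as circles. The poly-A spike scaling, drawn as upward triangles, moves every member to the right by 0.93 and places slc3a2, slc38a4 and slc31a1 at about 0.

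By the authors' deposited fold, slc25a44b, at 2.012 against uninjected embryos, and slc2a2, at 0.496, stood at the border of the deposited tables. By the ratio of mean signals, at 1.44 and 0.352, neither stood at that border. Just outside it was slc2a15b, which the authors' deposited table against coMO does not list and whose mean signals had a ratio of 1.97 there. slc25a26, not listed in the authors' deposited table against uninjected embryos, had a ratio of mean signals of 1.87.

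Pump, channel and ABC genes were counted by symbol alone, whatever the tissue or function of each gene. The deposited tables named 22 probe sets of genes that start with atp1a, atp1b, atp2a, atp2b, atp6v, abc or aqp, and 21 were tested. Against coMO limma called 18 lower and 3 higher, and the same numbers were called against uninjected embryos. Of all probe sets tested 26.8% were called lower and 29.5% higher against coMO, and 26.5% lower and 30.4% higher against uninjected embryos. The median log2 difference of the 21 was -1.19 against coMO. These probe sets were named on the same differences as the carriers, so the counts are a description. With the poly-A scaling 4 were called lower and 3 higher against coMO, beside 4.17% and 69.8% of all probe sets.

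All 9 probe sets for Na,K-ATPase subunits, the pump that makes the sodium gradient, were lower in ERbeta2 MO, at log2 -1.61 to -0.71 against coMO. They read atp1a1a.4, atp1a3a, atp1a3b, atp1b1b, atp1b2a, atp1b2b and atp1b3a, with several probe sets for atp1b2a. Of the 9, 8 were tested and atp1b2b lay below the filter. The tissue that these signals come from was not tested. The subunit atp1a1a.4 had 1018 and 1179 in ERbeta2 MO, 2413 and 2618 in coMO and 2808 and 2652 in uninjected embryos. All 6 probe sets of the vacuolar proton pump, which acidifies organelles and helps ionocytes of the skin to take up salt, were lower too, at -1.36 to -0.88. Of these atp6v1e1b had 1664 and 1574 in ERbeta2 MO, 3798 and 4621 in coMO and 3797 and 4413 in uninjected embryos.

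The 3 aquaporin probe sets were lower as well. Those of aqp12, whose human relative is known from pancreas, stood at log2 -2.42 and -1.78 against coMO. That of aqp3a stood at -1.26. The calcium pump atp2a2a stood at -1.10. The 3 genes called higher, abcf1, abcf2a and abce1, belong by name to the ABC family but act in translation and ribosome recycling, not in transport. abcf1 had 6662 and 7640 in ERbeta2 MO, 1845 and 1783 in coMO and 1614 and 1882 in uninjected embryos.

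**Figure D4:**
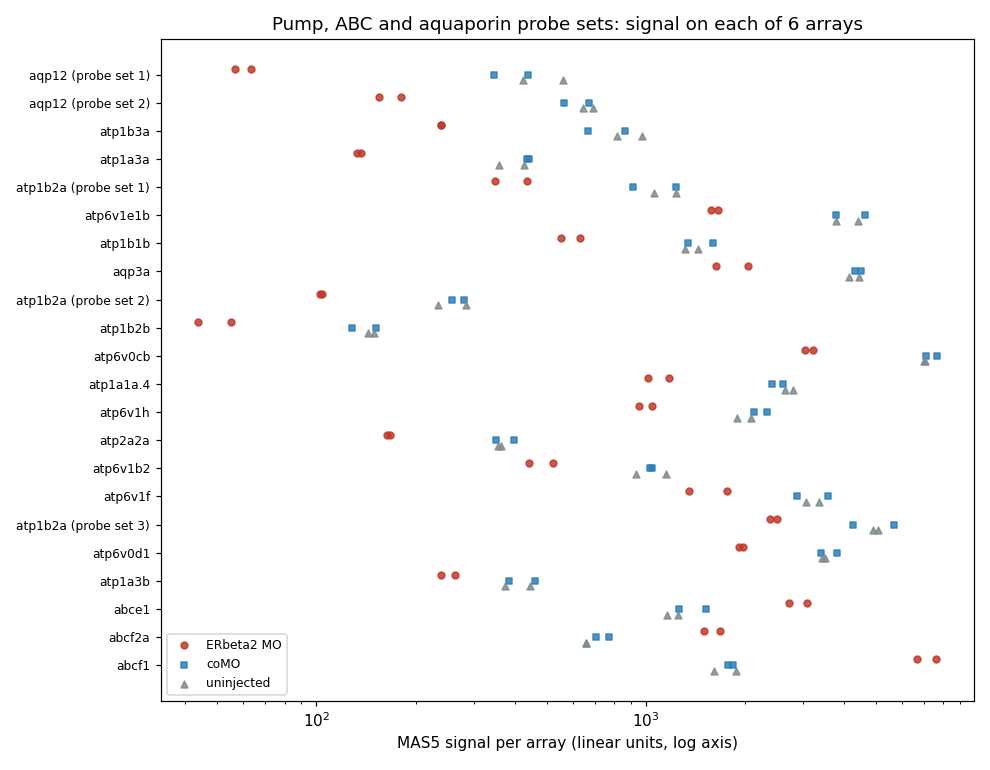
MAS5 signal of the 22 pump, ABC and aquaporin probe sets on each of the 6 arrays (linear units on a log axis), ordered by the difference of ERbeta2 MO from coMO. ERbeta2 MO (circles) lies left of coMO (squares) and uninjected (triangles) in 19 rows and right of them for abce1, abcf2a and abcf1.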

How the data were processed

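Whole embryos of 3 groups were measured on 6 arrays. The intensities of the deposited value table are linear signals that the authors computed with MAS5 (per the submitters' processing notes). Its version is not given in the sources used here. As for the fold in the deposited tables, it is a linear ratio between groups, per the file headers, but no source used here says how it was computed. The median signal was 198 to 228 per array, and the number of arrays limits the precision. Columns of values with no sample numbered 0.

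The deposited signals were taken to log2(signal + 16). Left out were 115 control probe sets and, of the remaining probe sets, the 40% lowest in mean log2, so that 9302 were tested. limma 3.58.1 in R 4.3.3 (lmFit, eBayes with a trend) was fitted to the 6 arrays together, without a replicate block and with 3 residual degrees of freedom. A call is a p under 0.05 after Benjamini-Hochberg adjustment. On simulated data for ERbeta2 MO against coMO, with 200 of 9302 probe sets changed, 61.2% of 1.5-fold, 97.0% of 2-fold and 100% of 4-fold changes were recovered. Of the simulated calls 3.37% were false against coMO and 6.52% against uninjected embryos. In the data 56.2% of probe sets were called against coMO, so these shares need not hold for the calls made here.

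The members, organ lists, markers and pump genes were chosen with earlier results of these data known. By the rule for named genes every member could be named. The pump genes named were chosen after their values were seen. Markers came from 12 lists. Genes outside the deposited tables are unnamed here. Alternatives were the offset, the filter, the scaling, the variance model, the arrays fitted, a replicate block and leaving out each array. No sequences and no coordinates were used here.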

Additional observations from a re-analysis of the deposited data

How the results depend on the processing

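Over 17 alternative settings the counts of members called moved by over 1.5 times in 2. With no filter all 31 members were tested and 23 were called lower against coMO and 23 against uninjected embryos, in place of 13 and 13, since 10 more were tested. Of all 15502 probe sets 22.8% were then called lower and 18.0% higher against coMO. Against uninjected embryos these shares were 20.9% and 18.8%. With the poly-A spike scaling 3 were called lower against coMO and 7 against uninjected embryos. That scaling added 0.93 to every log2 difference from coMO and 0.64 to every one from uninjected embryos. Of all probe sets tested 4.17% were then called lower and 69.8% higher against coMO. Against uninjected embryos these shares were 6.25% and 53.3%. Why the spike signals differed between the groups was not tested. slc31a1 against coMO turned to 0.0085 (log2) with that scaling, the only change of sign among called differences of tested members. Leaving out single arrays gave 7 to 8 higher and 13 to 13 lower against coMO, and 7 to 8 higher and 12 to 13 lower against uninjected embryos, where a lone array was assumed to vary like the others. Between coMO and uninjected embryos 0 members were called in every setting. The replicate block gave 7 higher and 13 lower against coMO and 8 and 13 against uninjected embryos, and changed no call of a member. Deviations of same-numbered arrays correlated at 0.02 and 0.01 between ERbeta2 MO and each control group, and at 0.12 between the control groups. With 2 arrays per group this cannot decide whether same-numbered arrays share a spawning or batch. Over all probe sets the block moved the calls of coMO against uninjected embryos from 27 higher and 20 lower to 51 and 41. Members with signals near the offset of 16 in ERbeta2 MO have uncertain folds.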

Other observations

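The deposited folds of members and the ratio of mean signals had the same direction in 55 of 55 listed cases. In 7 of these the ratio of mean signals lay between 0.5 and 2, although the authors' deposited tables list only larger differences. For slc3a2 against coMO the authors' deposited table gives 0.446 and the ratio of mean signals was 0.517. Of 7 comparisons in which a member was not listed, 3 had a ratio of mean signals outside that range. These were slc49a4 against coMO, at 0.230, slc13a1 against coMO, at 0.316, and the second probe set of slc22a2 against uninjected embryos, at 0.448. How the authors chose what to list is not given in the sources used here.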
